A study of Mus musculus with 4 samples.

Results

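The 8 Toll-like receptor genes Tlr1, Tlr2, Tlr4, Tlr6, Tlr7, Tlr8, Tlr9 and Tlr13, the adaptor gene Myd88 and the chaperone gene Unc93b1 were followed in tumor-associated macrophages (TAMs). These 10 genes were taken by symbol in GENCODE M21, without use of their values, from the 54146 genes of the count table, and all 10 were among the 14688 genes with enough counts to be tested. TAMs were sorted by FACS as live CD11b+F4/80+ cells, after selection with CD45 beads, from subcutaneous tumors of MCA205, a mouse fibrosarcoma line. Bulk polyA RNA was sequenced in 4 libraries. The 2 control libraries (labelled vehicle) came from female mice of 8 to 16 weeks that received no drug, and the 2 propranolol libraries from female mice of the same ages that drank water with 0.5 g/L propranolol, a blocker of beta-adrenergic receptors, from the day of inoculation. All mice carried MCA205 tumors, and the labels give neither a strain nor a genetic modification. The study grew this line both in C57BL/6 mice and in nude mice, which lack T cells, and which of them gave these libraries is not given in the sources used here. The 2 libraries of a group are described in the study as biological replicates. Whether a library came from 1 mouse or a pool is not given in the sources used here, so the p-values measure the spread between these libraries. The libraries held 13798249 and 23018142 counts in controls and 39818103 and 16424081 counts after propranolol.

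Toll-like receptors detect conserved molecules of microbes and of damaged cells, and macrophages carry many of them. TLR1, TLR2, TLR4 and TLR6 sit at the cell surface and bind lipopeptides, lipopolysaccharide and related products, while TLR7, TLR8, TLR9 and TLR13 bind RNA or DNA in endosomes. UNC93B1 escorts the receptors of nucleic acids out of the endoplasmic reticulum, and MYD88 links all of these receptors to kinases that activate NF-kappaB and other transcription factors.

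The transcripts of the 10 genes differed in base composition, which moved with the fold changes of all genes as described further on. The middle 120 bases of the coding sequence are shown for 4 receptors, since these 4 cover the lowest and a high G and C content of the group (GENCODE M21 transcripts on GRCm38, 5′ to 3′ on the coding strand, G and C in capitals, each window within 1 exon). The windows are at chr4:66840164-66840283 (+ strand) for Tlr4, chrX:167306854-167306973 (- strand) for Tlr7, chrX:167244245-167244364 (- strand) for Tlr8 and chr9:106225000-106225119 (+ strand) for Tlr9.
Tlr4: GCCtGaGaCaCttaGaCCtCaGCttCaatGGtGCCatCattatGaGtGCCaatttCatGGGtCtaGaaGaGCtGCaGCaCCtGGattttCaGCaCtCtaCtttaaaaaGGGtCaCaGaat
Tlr7: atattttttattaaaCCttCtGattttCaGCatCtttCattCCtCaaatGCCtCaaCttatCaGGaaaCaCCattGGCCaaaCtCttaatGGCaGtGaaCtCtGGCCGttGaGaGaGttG
Tlr8: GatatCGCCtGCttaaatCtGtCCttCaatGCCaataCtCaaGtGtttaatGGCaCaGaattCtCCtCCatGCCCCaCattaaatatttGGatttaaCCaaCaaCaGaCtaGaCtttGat
Tlr9: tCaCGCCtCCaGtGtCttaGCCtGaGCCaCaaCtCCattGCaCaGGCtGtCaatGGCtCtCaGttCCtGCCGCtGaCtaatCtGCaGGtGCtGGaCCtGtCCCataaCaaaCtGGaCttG
Capitals made up 54 bases of the Tlr4 window, 46 of the Tlr7 window, 46 of the Tlr8 window and 65 of the Tlr9 window. Over the whole coding sequence the G and C content was 40.3% for Tlr4, 40.7% for Tlr7, 39.8% for Tlr8 and 56.7% for Tlr9.

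In TAMs of propranolol treated mice, transcripts of 4 receptors (Tlr4, Tlr7, Tlr8 and Tlr13) fell, while those of Tlr9, Myd88 and Unc93b1 rose. However, a correction for GC content turned Tlr4, Tlr8 and Tlr13 to values above 0 and took the call from these 3 genes and Tlr9. It took the call from Myd88 as well, but not with the replicate number added as a block. In the test without this correction, Tlr1, Tlr2 and Tlr6 did not pass. Thus 7 of the 10 genes passed an adjusted p of 0.05 (edgeR quasi-likelihood test with Benjamini-Hochberg adjustment over all tested genes), beside 42.2% of all tested genes, 3 of them higher (background 21.8%) and 4 lower (background 20.4%). With a change of more than 1.5-fold in addition, 4 genes were called, Unc93b1 higher and Tlr4, Tlr7 and Tlr8 lower, beside 27.8% of all tested genes (12.2% higher and 15.6% lower). None of these 4 was past 1.5-fold with the GC correction (Tlr7 at -0.50 and Unc93b1 at 0.30), beside 12.6% of all tested genes. With scaling to macrophage markers Unc93b1 was at 0.35. In that fit 0 genes were higher and 4 lower, beside 458 higher and 3858 lower of the 14688 tested genes. In CPM after TMM scaling, the libraries of the groups did not overlap in 8 genes (background 72.6%), 4 of them higher (35.8%) and 4 lower (36.9%) after propranolol. In TPM, a scale without TMM factors, 2 genes were higher (Myd88 and Unc93b1), 7 lower and Tlr9 overlapped. No share over all tested genes was counted in TPM, so these counts describe the 10 genes without a background. The median log2 fold change was -0.06 over the 10 genes and -0.02 over all tested genes, and with the GC correction 0.22 and 0.09. Without control replicate 1, 2 genes passed both criteria, because Tlr4 and Tlr8 then changed by less than 1.5-fold.

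**Figure D1:**
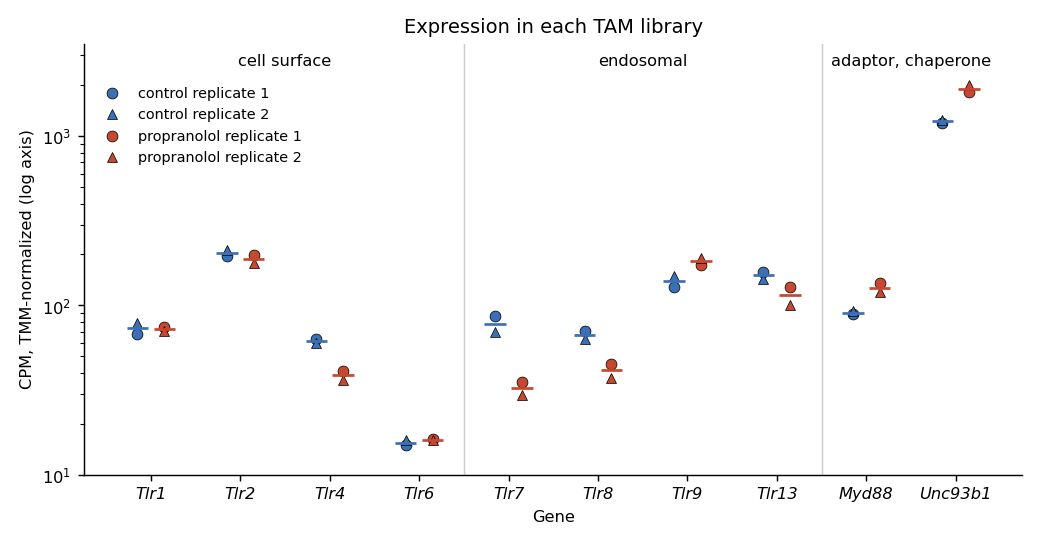
Expression of the 10 genes in each library, as CPM after TMM scaling on a log axis, with circles for replicate 1, triangles for replicate 2 and short bars for group means. On this scale the libraries of the groups overlapped for Tlr1 and Tlr2 only, and Unc93b1 stood far above the rest, at 1188 to 1992 CPM.

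Among the surface receptors, Tlr4 (chr4:66827584-66930284, + strand) encodes the receptor of lipopolysaccharide. Its level, in counts scaled to library size by TMM factors (CPM), was 63.7 and 59.8 in controls and 41.2 and 36.3 after propranolol. Both propranolol libraries were below both control libraries. The mean was 61.8 ± 2.78 CPM (SD, n = 2) in controls and 38.7 ± 3.46 CPM (SD, n = 2) after propranolol, and the log2 fold change was -0.67 (SE 0.12, adjusted p = 0.00163 in edgeR). Without control replicate 1 it was -0.57 and without propranolol replicate 2 it was -0.55, so that either omission took Tlr4 below 1.5-fold. With the GC correction it was 0.27 and did not pass the edgeR test (adjusted p = 0.0923). In bulk samples, fewer cells that express a gene and less RNA of it per cell cannot be told apart.

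Tlr2 (chr3:83836272-83841767, - strand) encodes the shared partner of TLR1 and TLR6 in lipopeptide recognition. Its level was 194.9 and 212.9 CPM in controls and 199.5 and 177.9 CPM after propranolol, and the groups overlapped. The log2 fold change was -0.11, with a 95% interval from -0.34 to 0.12 (adjusted p = 0.42 in edgeR). Tlr1 (chr5:64924679-64933563, - strand), which pairs with TLR2 on triacylated lipopeptides, was at 67.8 and 78.5 CPM in controls and at 74.3 and 70.3 CPM after propranolol. The groups overlapped here as well, and the log2 fold change was -0.02, with a 95% interval from -0.27 to 0.23 (adjusted p = 0.915 in edgeR). Tlr6 (chr5:64952031-64960097, - strand), which pairs with TLR2 on diacylated lipopeptides, was the lowest of the 10 genes, at 15.04 and 16.0 CPM in controls and at 16.2 and 16.0 CPM after propranolol. The propranolol libraries lay just above the control libraries, and the log2 fold change was 0.05, with a 95% interval from -0.29 to 0.40 (adjusted p = 0.813 in edgeR). For these 3 genes a change of 1.5-fold (0.585 on the log2 scale) in either direction lay outside the interval of this fit. With the GC correction Tlr1 came to 0.35 (SE 0.11) and Tlr6 to 0.39 (SE 0.15). With scaling to macrophage markers Tlr2 came to -0.41 (SE 0.10). No intervals are given for those fits, so the statement does not extend to them.

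Tlr1 and Tlr6 lie next to each other on chromosome 5 and are similar in sequence, so that reads of one could be assigned to the other or be dropped. Their coding sequences were identical at 75.6% of 2361 aligned positions, and the longest run of identical bases was 229 bases, within the coding part of 1 exon of each gene. The 5′ end of this run is shown with the 60 bases before it, to show how closely the genes match there (GENCODE M21, GRCm38, - strand, 5′ to 3′). Capitals mark bases that both genes share, and the 1 base in lower case is the difference that ends the run. The windows are at chr5:64925736-64925825 for Tlr1 and chr5:64954027-64954116 for Tlr6.
Tlr1: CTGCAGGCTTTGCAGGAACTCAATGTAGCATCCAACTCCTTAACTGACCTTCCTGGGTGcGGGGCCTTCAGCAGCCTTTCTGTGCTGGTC
Tlr6: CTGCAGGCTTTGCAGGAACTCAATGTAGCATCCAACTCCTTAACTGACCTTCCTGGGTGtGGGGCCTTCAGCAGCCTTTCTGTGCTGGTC
Of the 100-base windows of the transcript, 8.85% of those of Tlr1 and 7.24% of those of Tlr6 occurred in the other gene. Tlr6 took 18.1% of the counts of the pair in control replicate 1 (exact 95% binomial interval 16.0% to 20.4%) and 16.9% in control replicate 2 (15.4% to 18.5%). It took 17.9% in propranolol replicate 1 (16.6% to 19.2%) and 18.6% in propranolol replicate 2 (16.5% to 20.8%). All 4 intervals, which cover counting error only, overlapped. Of the other 8 genes, Myd88 alone shared windows of this length with another gene.

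Of Tlr7, Tlr8, Tlr9 and Tlr13, Tlr7 (chrX:167304929-167330558, - strand), a receptor of single-stranded RNA, had the lowest log2 fold change. It was at 86.4 and 69.7 CPM in controls and at 35.3 and 29.5 CPM after propranolol. The control libraries differed from each other by more than the propranolol libraries did, yet both lay far above them. The mean went from 78.03 ± 11.8 to 32.4 ± 4.15 CPM (SD, n = 2 each), a log2 fold change of -1.26 (SE 0.14, 95% interval -1.57 to -0.94, adjusted p = 0.000199 in edgeR). Leaving out each library in turn gave -1.40 to -1.04, and the GC correction gave -0.50, less than 1.5-fold (adjusted p = 0.0199 in edgeR).

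Tlr8 (chrX:167242696-167264329, - strand), the neighbor and closest relative of Tlr7 on the X chromosome, was at 70.5 and 63.4 CPM in controls and at 45.4 and 37.5 CPM after propranolol. Again both propranolol libraries were the lower ones. Its log2 fold change came to -0.68 (SE 0.13, 95% interval -0.97 to -0.40, adjusted p = 0.00221 in edgeR). It was -0.55 without control replicate 1 and -0.53 without propranolol replicate 2, in both cases less than 1.5-fold. With the GC correction it was 0.17 and did not pass the edgeR test (adjusted p = 0.314). Tlr7 and Tlr8 were identical at 57.1% of 3026 aligned coding positions and shared no window of 100 bases. Tlr8 took 44.9% of the counts of the pair in control replicate 1 (exact 95% binomial interval 42.9% to 47.0%) and 47.7% in control replicate 2 (45.9% to 49.4%), with intervals that again cover counting error only. After propranolol its share was 56.2% in replicate 1 (54.4% to 58.04%) and 56.0% in replicate 2 (52.9% to 59.1%). Tlr7 held more counts of the pair in both control libraries and Tlr8 in both propranolol libraries, but per exon length Tlr8 was above Tlr7 in control replicate 2 as well. With 2 libraries per group, an exact permutation test cannot give a p below 0.33, and the difference in shares was not tested.

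Tlr13 (chrX:106143204-106160493, + strand), which recognizes bacterial ribosomal RNA, was at 158.6 and 143.9 CPM in controls and at 128.9 and 100.3 CPM after propranolol. The groups did not overlap, but propranolol replicate 2 lay well below replicate 1. Its log2 fold change came to -0.40 (SE 0.13, 95% interval -0.68 to -0.11, adjusted p = 0.0311 in edgeR). With the GC correction it was 0.10 and did not pass the edgeR test (adjusted p = 0.565). This gene did not pass the edgeR test without control replicate 1 (-0.27, adjusted p = 0.204) or without propranolol replicate 2 (-0.20, adjusted p = 0.233), and without propranolol replicate 1 the value was -0.59, past 1.5-fold.

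Tlr9 (chr9:106222598-106226883, + strand), the receptor of DNA with unmethylated CpG, was the one receptor of the 8 that rose in the test without GC correction. It was at 128.9 and 150.2 CPM in controls and at 173.8 and 191.9 CPM after propranolol. Both propranolol libraries were the higher ones, with a mean of 182.9 ± 12.8 CPM against 139.5 ± 15.1 CPM (SD, n = 2 each). The log2 fold change was 0.39 (SE 0.11, 95% interval 0.14 to 0.63, adjusted p = 0.0179 in edgeR). Without control replicate 1 it was 0.34 and did not pass the edgeR test (adjusted p = 0.0948), nor did it when libraries were scaled to macrophage markers (0.10, adjusted p = 0.559) or with the GC correction (0.07, adjusted p = 0.681).

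The chaperone and the adaptor gene both rose. Unc93b1 (chr19:3935186-3949340, + strand) was at 1188 and 1253 CPM in controls and at 1821 and 1992 CPM after propranolol. Each propranolol library exceeded each control library by more than the libraries of a group differed. This was a log2 fold change of 0.64 (SE 0.09, 95% interval 0.44 to 0.84, adjusted p = 0.000497 in edgeR), and 0.61 to 0.71 with each library left out in turn. Myd88 (chr9:119335934-119341411, - strand) was at 88.9 and 92.7 CPM in controls and at 135.6 and 119.6 CPM after propranolol. Here too both propranolol libraries were the higher ones, with a log2 fold change of 0.49 (SE 0.11, 95% interval 0.26 to 0.73, adjusted p = 0.0045 in edgeR). Without propranolol replicate 2 it was 0.61, past 1.5-fold. With scaling to macrophage markers it was 0.20 and did not pass the edgeR test (adjusted p = 0.15), as with the GC correction (0.27, adjusted p = 0.0939). With the GC correction and the replicate number as a block it passed the edgeR test (0.26, adjusted p = 0.0426). Of the exon bases of Myd88, 11.3% lie under exons of Acaa1a on the opposite strand. The counting options given in the study name no strand, so reads there may have been dropped or assigned to either gene, which was not checked.

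**Figure D2:**
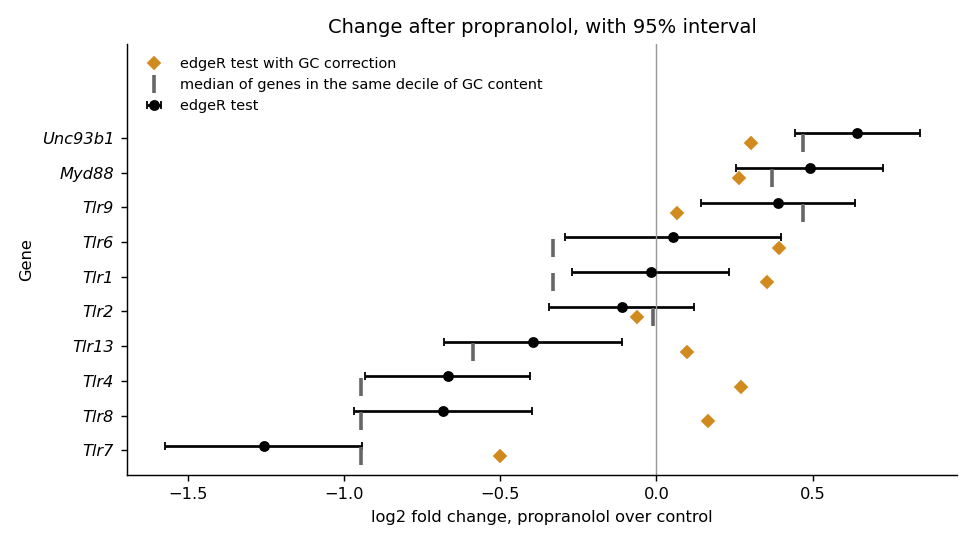
The log2 fold change of each gene (x axis, propranolol over control) in the edgeR test, as black circles with 95% intervals, beside the value after GC correction (diamonds) and the median of tested genes with like GC content (ticks). Tlr7 stayed below 0 and Unc93b1 above 0 in both fits, while Tlr4, Tlr8 and Tlr13 went from below 0 to above 0 with the correction.

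The fold changes moved with GC content across all genes. Over 14681 tested genes, the Spearman correlation of the log2 fold change with the GC content of the longest transcript was 0.577, across genes of the same 4 libraries. In the decile of genes with the lowest GC content (30.8% to 41.2%) the median log2 fold change was -0.94, and in the decile with the highest (57.7% to 75.5%) it was 0.46. Tlr4, Tlr7 and Tlr8, which fell, all lay in the lowest decile, at 39.4%, 41.0% and 40.1%, and Tlr13 lay in the second decile at 43.6%. Myd88, Tlr9 and Unc93b1, which rose, were at 53.5%, 56.2% and 57.3%, in the deciles 8 and 9. Tlr1, Tlr6 and Tlr2, which did not pass the test, lay between them, at 45.1%, 45.6% and 49.3%.

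Set against genes of like GC content, Tlr7 was below its decile (-1.26 against a median of -0.94), while Tlr4 (-0.67) and Tlr8 (-0.68) were above it. Unc93b1 was above the median of its decile (0.64 against 0.47) and Tlr9 below it (0.39 against 0.47). After removal of the GC trend from each library, 3 of the 10 genes passed the edgeR test, beside 24.1% of all tested genes (17.5% higher and 6.55% lower). Tlr7 remained lower (-0.50, adjusted p = 0.0199 in edgeR), Unc93b1 remained higher (0.30, adjusted p = 0.0346) and Tlr1 became higher (0.35, adjusted p = 0.0421). Tlr4, Tlr8 and Tlr13 came to 0.27, 0.17 and 0.10, the opposite sign to before, and did not pass (adjusted p = 0.0923, 0.314 and 0.565 in edgeR). Myd88 came to 0.27 (adjusted p = 0.0939 in edgeR, and 0.26 with adjusted p = 0.0426 with the replicate number as a block) and Tlr9 to 0.07 (adjusted p = 0.681). None of the 10 genes then changed by more than 1.5-fold, beside 12.6% of all tested genes. The part of base composition in the results was not tested.

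**Figure D3:**
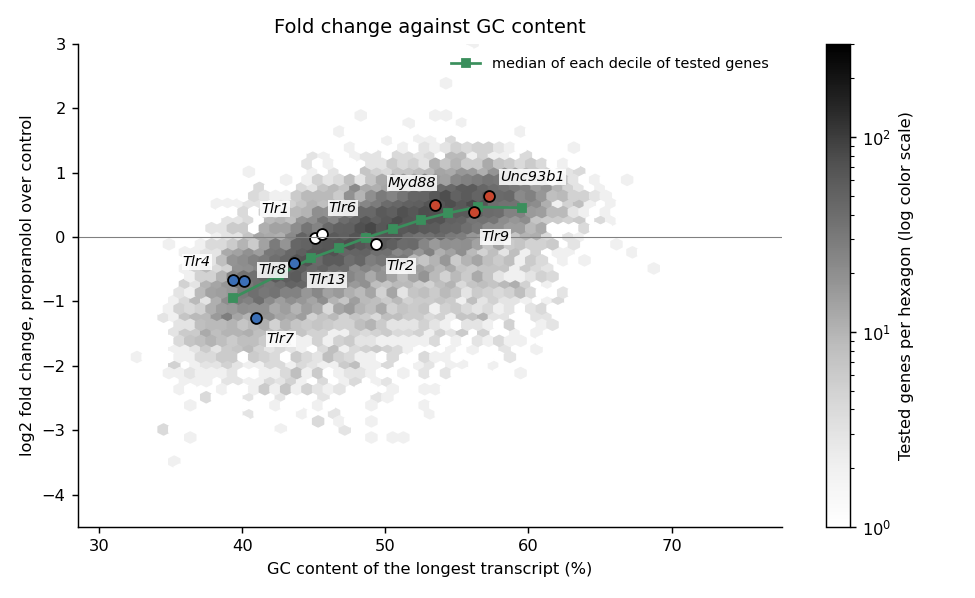
The log2 fold change of tested genes (y axis, propranolol over control) against the GC content of the longest transcript in percent (x axis), with hexagons shaded by the number of genes, squares for the median of each decile of genes, and circles for the 10 genes (blue lower, red higher, white not past the test). The lower genes sit on the left and the higher ones on the right along the trend, before the correction that moved Tlr4, Tlr8 and Tlr13 above 0, and 21 genes fall outside the drawn range.

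Levels were compared between genes as TPM, a share of all transcripts that corrects for exon length. In controls the order of mean TPM was Unc93b1 (1338), Tlr2 (225), Tlr9 (133), Myd88 (117.1), Tlr13 (116.6), Tlr1 (72.7), Tlr7 (63.4), Tlr8 (61.9), Tlr4 (36.9) and Tlr6 (13.8). The libraries overlapped between Myd88 and Tlr13, between Tlr1 and Tlr7 and between Tlr7 and Tlr8, so these neighbors were not separated. After propranolol the order was Unc93b1 (1772), Tlr2 (176), Tlr9 (148), Myd88 (139), Tlr13 (74.8), Tlr1 (60.8), Tlr8 (32.5), Tlr7 (22.3), Tlr4 (19.6) and Tlr6 (12.2), and only Tlr9 and Myd88 overlapped. The mean of Tlr8 was above that of Tlr7 only after propranolol, but in control replicate 2 Tlr8 (59.6 TPM) was already above Tlr7 (57.5 TPM).

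Shares within the 8 receptors do not depend on the scaling of a library. The endosomal receptors held 53.3% and 50.5% of the summed receptor TPM in controls and 50.3% and 51.4% after propranolol, and the groups overlapped. Within this share, Tlr7 went from 9.84% and 7.74% to 4.30% and 3.86%, and Tlr9 from 17.2% and 19.6% to 24.8% and 29.5%. The groups did not overlap for either gene. Thus the endosomal share was of like size in both groups while its makeup differed, with 0.67 and 0.464 Tlr7 counts for each Tlr9 count in controls and 0.203 and 0.154 after propranolol. The whole behind these shares differed too. The summed TPM of the 8 receptors was 704 and 743 in controls and 556 and 537 after propranolol. Tlr9 itself overlapped in TPM, at 121.3 and 145.4 in controls and 137.9 and 158.5 after propranolol. At the cell surface there were 3.06 and 3.56 Tlr2 counts for each Tlr4 count in controls and 4.85 and 4.90 after propranolol. The number of Unc93b1 counts for each Myd88 count was 13.4 and 13.5 in controls and 13.4 and 16.7 after propranolol. These shares and ratios are descriptions, and the genes compared differ in GC content.

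**Figure D4:**
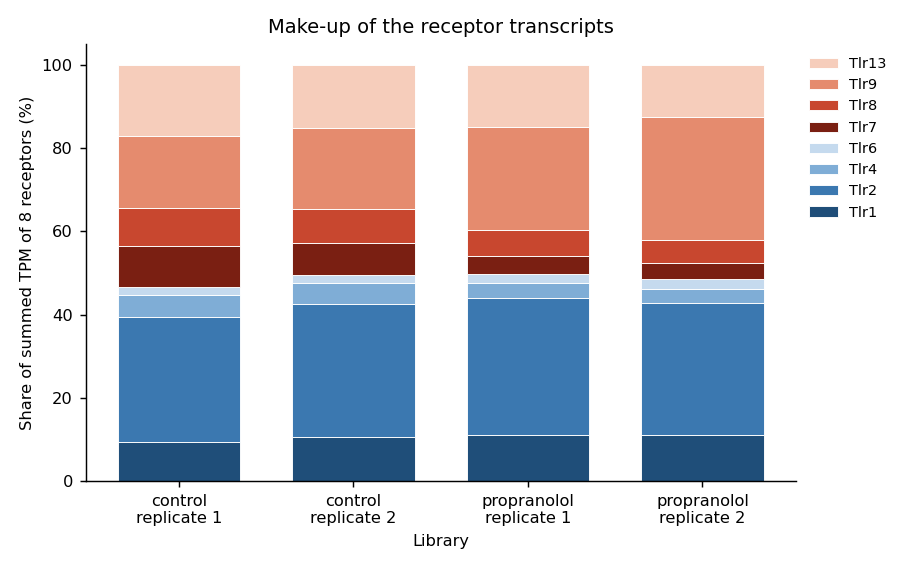
Share of each receptor in the summed TPM of the 8 receptors (y axis, percent) in each of the 4 libraries (x axis). Tlr7 took 7.74% to 9.84% in controls and 3.86% to 4.30% after propranolol, and Tlr9 17.2% to 19.6% and 24.8% to 29.5%. The summed TPM was 704 and 743 in controls and 556 and 537 after propranolol.

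Of 117 further genes of the Toll-like receptor pathway, 110 were tested, and 43 were higher and 16 lower after propranolol at an adjusted p of 0.05 in edgeR (background 21.8% and 20.4%). Their median log2 fold change was 0.26, beside -0.02 for all tested genes. With the GC correction 39 were higher and 3 lower (background 17.5% and 6.55%), and with scaling to macrophage markers 18 were higher and 30 lower (background 9.3% and 33.3%). The counts of single lists under each of these settings have the same backgrounds.

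All 4 remaining mouse receptors were tested, and 1 rose and 1 fell. Tlr3, the endosomal receptor of double-stranded RNA that signals through TRIF in place of MYD88, went from 29.97 to 10.1 CPM, a log2 fold change of -1.56 (adjusted p = 0.000125 in edgeR). Its GC content was 40.0%, and it remained lower after the GC correction (-0.70, adjusted p = 0.00686 in edgeR), as Tlr7 did. Tlr5, the receptor of flagellin, went from 9.03 to 15.1 CPM (0.74, adjusted p = 0.00814 in edgeR), but none of the 4 was called higher with scaling to macrophage markers. Tlr11 and Tlr12 did not pass (adjusted p = 0.14 and 0.189 in edgeR), while with the GC correction Tlr12 was lower (-0.50, adjusted p = 0.00804 in edgeR).

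Among 9 co-receptors and accessory proteins, 2 rose (Cd14 and Mrc1) and 3 fell (Ly96, Hmgb1 and Cd180) (background 21.8% higher and 20.4% lower). Cd14, which hands lipopolysaccharide to TLR4, went from 329 to 529 CPM (0.68), and Ly96, the MD-2 subunit that binds it beside TLR4, from 6.78 to 2.61 CPM (-1.37). Hmgb1, a nuclear protein sensed when released, changed by -1.19 and Cd180, a TLR4 relative, by -0.69. Mrc1, the mannose receptor, rose by 0.33 but did not pass without control replicate 2 (0.24, adjusted p = 0.127 in edgeR) or without propranolol replicate 1 (0.28, adjusted p = 0.0578). After GC correction 3 genes of this list were higher and 0 lower, since Ly96 (-0.63), Hmgb1 (-0.35) and Cd180 (-0.39) were still below 0 but did not pass (adjusted p = 0.123, 0.0822 and 0.0521 in edgeR). With scaling to macrophage markers 1 was higher and 5 were lower.

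Of 15 genes of receptor folding, traffic and processing, 14 were tested, with 7 higher and 2 lower (background 21.8% and 20.4%). Slc15a3, an endosomal transporter of peptide and histidine, rose by 0.85, Lgmn, an endosomal protease, by 0.74 and the AP-3 adaptor subunit Ap3d1 by 0.73. The chaperone gene Hsp90b1 changed by -0.61 and 5430427O19Rik by -1.02, but with the GC correction they came to 0.04 and -0.08 and did not pass. That correction gave 5 higher and 0 lower genes in this list, and scaling to macrophage markers gave 6 and 6.

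Among 23 adaptors and kinases, 6 were higher and 4 lower, close to the shares over all tested genes (21.8% and 20.4%), and without control replicate 1 these counts were 2 and 3. Tab1, a partner of the kinase TAK1, rose by 0.70, the kinase gene Ikbkb by 0.47 and Ikbke by 0.60, the last not past the test without control replicate 1 (0.39, adjusted p = 0.0552 in edgeR). Tab3 fell by 1.33, the ubiquitin-conjugating enzyme gene Ube2n by 0.69 and the kinase gene Chuk by 0.60 on the log2 scale. After GC correction Ube2n and Chuk turned to 0.10 and 0.12 and did not pass, and the counts were 7 higher and 1 lower. With scaling to macrophage markers they were 1 and 7.

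Among 15 transcription factors, 9 were higher and 2 lower (background 21.8% and 20.4%), with Irf7 at 0.76, Jun at 0.61 and Irf3 at 0.58 as the highest, and Creb1 at -0.65 and Rel at -0.64 as the lower ones. Without control replicate 1 the counts were 5 and 2, with the GC correction 2 and 0 (background 17.5% and 6.55%), and with scaling to macrophage markers 1 and 2 (background 9.3% and 33.3%). In the GC-corrected fit Irf7 remained higher (0.46), Jun (0.30) and Irf3 (0.25) did not pass, Rel came to -0.03 and Creb1 turned to 0.27, neither past the test.

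Among 23 negative regulators, 8 were higher and 4 lower (background 21.8% and 20.4%), the latter close to the share over all tested genes. Nfkbia, which holds NF-kappaB in the cytoplasm, rose by 0.93, the phosphatase gene Dusp1 by 0.73 and Pdlim2 by 0.73. Tnip3 was at -0.996, the deubiquitinase gene Cyld at -0.75 and Trim30a at -0.58. With the GC correction 7 were higher and 0 lower, as Tnip3 and Trim30a turned to 0.28 and 0.21 and Cyld came to -0.24, none of them past the test. The other lower gene, Peli1, turned from -0.30 to 0.66 and passed as higher (adjusted p = 0.00322 in edgeR). With scaling to macrophage markers 3 were higher and 5 lower.

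Of 28 response genes, which are known to be induced when these receptors are engaged, 22 were tested. A total of 10 rose and 0 fell (background 21.8% and 20.4%), and 12 did not pass. In some alternatives 1 gene of the list passed as lower. It was Il12b without control replicate 1, with the stricter filter and in limma-voom, and Saa3 without control replicate 2, without propranolol replicate 2, with no filter and in DESeq2, both named after their values were seen. Lcn2, an iron-sequestering protein, went from 1.13 to 5.91 CPM (2.33, adjusted p = 0.00112 in edgeR, and 3.00 without control replicate 2, with 11 and 38 control counts), Cxcl2, a neutrophil chemokine, from 64.1 to 174.3 CPM (1.44, adjusted p = 0.000103) and Ccl2, a monocyte chemokine, from 219 to 475 CPM (1.12, adjusted p = 0.000167). With the GC correction 14 rose and 0 fell (background 17.5% and 6.55%), and with scaling to macrophage markers 6 rose and 3 fell (background 9.3% and 33.3%). Lcn2 and Cxcl2 are also made by other cells, and which cells gave their transcripts here was not tested. Markers of other cell types are given in what follows.

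**Figure D5:**
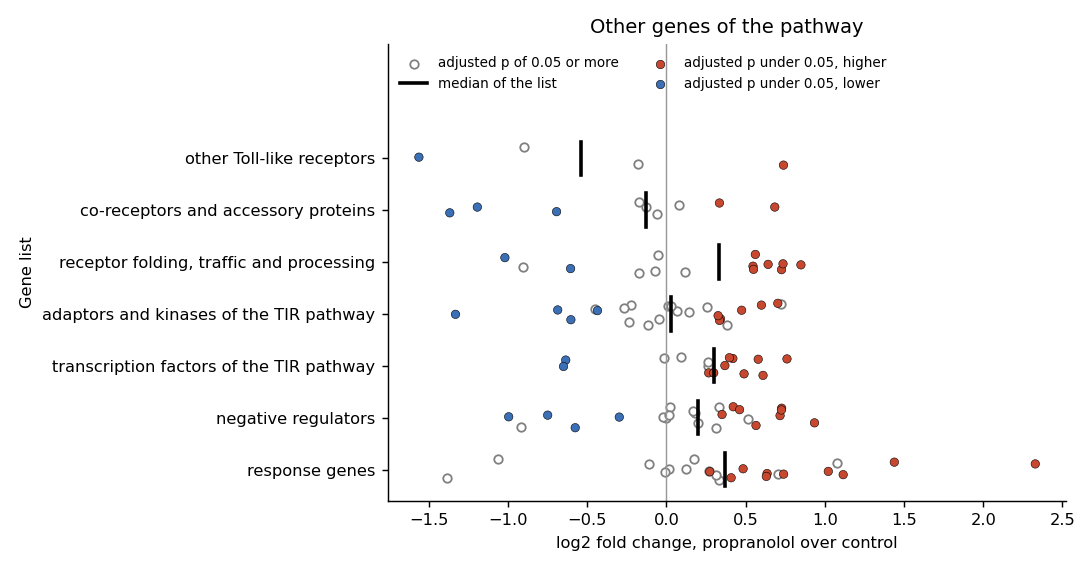
The log2 fold change (x axis, propranolol over control) of each tested gene of the 7 pathway lists, with a bar for the median of each list (red higher and blue lower at an adjusted p under 0.05, open circles not past the test). Response genes had a median of 0.37 and the 4 other receptors one of -0.54.

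The labelled cell type was checked against markers. All 12 macrophage markers were detected, with a summed level of 23530 and 22600 CPM in controls and 29460 and 26800 CPM after propranolol, and 8 rose and 0 fell (background 21.8% and 20.4%, as for the markers of other cells below). Without control replicate 2, 5 rose and 0 fell, and with the GC correction 7 rose and 1 fell (C1qa, -0.51, adjusted p = 0.00758 in edgeR, named after its values were seen). The most abundant, Lyz2, was at 5557 CPM in controls and 6765 CPM after propranolol. Of the sort markers, Itgam (CD11b) changed by -0.06 (adjusted p = 0.683 in edgeR) and Adgre1 (F4/80) by 0.18 (adjusted p = 0.117). Ptprc (CD45) went from 767 to 461 CPM (-0.74, adjusted p = 0.000301 in edgeR), at a GC content of 39.4%, and came to 0.20 with the GC correction (adjusted p = 0.128).

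Markers of other cell types moved with the groups, and their part in the results was not tested. Neutrophil markers summed to 179.8 and 197.7 CPM in controls and 355.4 and 381.3 CPM after propranolol. Of the 10 genes 7 were tested, with 6 higher, and Csf3r was the most abundant (113 to 167 CPM). With the GC correction 6 were higher as well (background 17.5%), but Csf3r did not pass (0.30, adjusted p = 0.129 in edgeR). Ly6g, named after its values were seen, had 0 and 2 counts in controls and 17 and 8 after propranolol, too few to be tested. T and NK cell markers summed to 213.5 and 249.6 CPM in controls and 97.6 and 53.6 CPM after propranolol, with 8 of 9 genes lower, and Cd8a was the most abundant (78.9 to 21.4 CPM). Both lists separated the groups in the 4 libraries.

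Plasmacytoid dendritic cells and B cells are known for high TLR7 and TLR9. Of the former list, 1 of 6 tested genes rose, and the sum of 332.8, 347.1, 632.3 and 619.1 CPM in the 2 control and 2 propranolol libraries was almost all Bst2 (335 to 620 CPM), which macrophages also express. Siglech, a defining marker chosen here after its values were seen, had 3, 12, 8 and 11 counts and was thus near 0 in all 4 libraries. B cell markers summed to 167.8 and 186.1 CPM in controls and 185.3 and 197.3 CPM after propranolol, with 1 gene higher and 2 lower of 4 tested and Ighm the most abundant (160 to 170 CPM). These calls depended on the setting. With the GC correction 0 were higher and 1 lower (Ebf1 at -1.73), with Ms4a1 at -1.90 and Cd79b at 0.52 not past the test. Without control replicate 1, Ebf1 went from -2.27 to -1.27 and did not pass. Ms4a1 (-2.67) was at -2.87 to -2.54 with each library left out, yet passed in none of these fits. It had 15 and 25 counts in controls and 6 and 2 after propranolol.

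Conventional dendritic cell markers summed to 41.5 and 39.2 CPM in controls and 26.6 and 21.1 CPM after propranolol (0 higher and 3 lower of 7), with Ccr7 the most abundant (7.67 to 6.77 CPM). The GC correction left 1 of these 3 calls, with the list's median going from -0.98 to -0.67. Calls were also lost with a library left out. Cd209a (-1.02) came to -0.75 without control replicate 1 and to -0.81 without propranolol replicate 2. Clec9a (-1.52) came to -1.15 without control replicate 2, while Xcr1 passed in each of these fits. Monocyte markers summed to 590.8 and 522.4 CPM in controls and 551.6 and 447.4 CPM after propranolol (2 higher and 1 lower of 5), with Ccr2 the most abundant (426 to 284 CPM). After GC correction 4 of these genes were higher and 0 lower, and Ccr2, at a GC content of 39.4%, turned from -0.58 to 0.36 (adjusted p = 0.029 in edgeR). Fibroblast and tumor cell markers summed to 5021 and 3083 CPM in controls and 4875 and 4364 CPM after propranolol (1 higher and 5 lower of 8), with Fn1 the most abundant (2173 to 3983 CPM), a gene that macrophages also express. Without Fn1 the other 7 genes summed to 2737 and 1021 CPM in controls and 610 and 664 CPM after propranolol, with control replicate 1 far above the rest. No marker gene was at 0 in all 4 libraries.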

How the data were processed

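RNA sequencing counts of 4 TAM libraries were analyzed. The authors deposited counts of fragments per gene, whole numbers without normalization. Per the submitters' processing notes and the methods, reads were aligned to mm10 with STAR 2.7.1a, filtered with SAMtools 1.9 and counted over exons with featureCounts 1.6.4. The annotation release and strand option are not given in the sources used here. RNA had an integrity number above 7.5, and 400 ng entered each library. Each column carries a number that appears in the label of 1 library, and all columns were used. Replicates differed by more than counting noise (chi-square per degree of freedom 11.7 in controls and 14.9 after propranolol).

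Genes were matched by identifier without version to GENCODE M21, which named 54079 of 54146 genes. Groups were compared with the edgeR 4.0.16 quasi-likelihood test (R 4.3.3, TMM, filterByExpr with a minimum count of 10, no covariates, Benjamini-Hochberg adjustment over 14688 genes). Genes passed at an adjusted p of 0.05, with more than 1.5-fold as a second criterion. Standard errors came from the coefficient and the F statistic. TPM used the summed exon length, and GC content was taken from the longest transcript. The GC correction removed a natural spline with 5 degrees of freedom on GC content from each library. Other alternatives were the DESeq2 1.42.0 Wald test, DESeq2 size factors, scaling to macrophage markers, other filters, limma-voom (limma 3.58.1), glmTreat, a log2 threshold of 1.5, the replicate number as a block and leaving out each library. Scripts were tested on simulated data. The 10 genes were taken by symbol and not by their values, but the genes, lists and tests were chosen with earlier results of these data known. Named were the 10 genes, the 3 highest and 3 lowest genes past the test of each pathway list and of the other innate sensors, the most abundant gene of each marker list and the sort markers. Further genes are named outside this rule, with their values known. Among them are Peli1, Tlr11, Tlr12 and single markers of neutrophils, B cells and conventional dendritic cells.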

Additional observations from a re-analysis of the deposited data

How the results depend on the processing

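Of the 10 genes, 4 changed by more than 1.5-fold, and 2 to 5 did when each library was left out in turn. The count was 0 with the GC correction, 0 with the GC correction and the replicate block, 1 with glmTreat (Tlr7) and 0 at a log2 fold change above 1.5. With scaling to macrophage markers, which lowered the median of all genes by 0.29 on the log2 scale, it was 0 higher and 4 lower. Past the adjusted p alone, 7 genes passed, 5 to 7 with a library left out, 3 with the GC correction and 4 with the GC correction and the block. Over all tested genes 4084 changed (1798 higher and 2286 lower), 3615 to 4329 with a library left out, 1854 with the GC correction (1122 and 732), 2127 with the block in addition, 1093 with glmTreat, 728 above a log2 of 1.5, and 458 higher and 3858 lower with macrophage scaling. Of the pathway genes 34 changed (21 and 13), 32 to 42 with a library left out, 21 with the GC correction (19 and 2), 22 with the block in addition, 9 with glmTreat, 2 above a log2 of 1.5, and 4 higher and 20 lower with macrophage scaling. The causes were not tested.

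Single genes reversed as follows. With the GC correction, and with the block in addition, Tlr4 came to 0.27 and 0.27, Tlr8 to 0.17 and 0.16, Tlr13 to 0.10 and 0.091 and Tlr1 to 0.35 and 0.36. Tlr1 also reversed in DESeq2 (0.005018), with no filter (0.054) and with a library left out (-0.061 to 0.11), and Tlr6 reversed with macrophage scaling (-0.24). With that scaling Tlr9 (0.10, adjusted p = 0.559 in edgeR) and Myd88 (0.20, adjusted p = 0.15) did not pass, and Tlr2 did (-0.41, adjusted p = 0.0118). Tlr7 (-1.55 to -0.50) and Unc93b1 (0.30 to 0.72) passed in all 13 alternatives that fitted each gene. The endosomal share differed by -1.06 percentage points, from -2.47 to 0.345 with a library left out, and was positive without control replicate 1. Replicate numbers are shared across groups, but nothing in the labels pairs them. Same-numbered libraries deviated from their group means with a correlation of 0.169 over 14688 genes. With the replicate block 4 of the 10 genes, 37 pathway genes and 4362 tested genes changed, and no call among the 10 genes changed. With the GC correction and the block, Myd88 passed (0.26, adjusted p = 0.0426 in edgeR). In that fit 3 co-receptors were higher and 2 lower, and 3 conventional dendritic cell markers were lower. Depth limits Tlr6 the most of the 10 genes, at 223 to 588 counts per library.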

Other observations

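Sensors of other families were counted in the same fit. Of 23 innate sensors outside the Toll-like receptors (inflammasome sensors, sensors of cytosolic nucleic acids and lectin receptors), 22 were tested, of which 11 rose, 3 fell and 8 did not pass an adjusted p of 0.05 in edgeR (background 21.8% higher and 20.4% lower). Their median log2 fold change was 0.30, beside -0.06 for the 10 genes above, and with the GC correction 0.34 beside 0.22. Card9, the adaptor of lectin receptors, went from 73.4 to 174.3 CPM (1.24, adjusted p = 0.00018 in edgeR), the lectin receptor gene Clec4d from 29.5 to 58.8 CPM (1.01, adjusted p = 0.000496) and Nlrp3, an inflammasome sensor, from 93.8 to 167 CPM (0.84, adjusted p = 0.000253). The genes that fell were Clec7a, the receptor of beta-glucan, from 193.8 to 102.9 CPM (-0.90), Aim2, a sensor of cytosolic DNA, from 46.3 to 26.2 CPM (-0.82) and Nlrc4, which acts with sensors of flagellin, from 25.5 to 16.9 CPM (-0.59). With the GC correction 11 rose and 0 fell, with Clec7a at -0.12, Aim2 at -0.25 and Nlrc4 at -0.27, none of which passed. Clec4d, at a GC content of 40.4%, came to 1.83 with the correction. With scaling to macrophage markers 6 rose and 6 fell.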
